A study of Mus musculus with 4 samples.

Results

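Genes for splicing factors, RNA helicases and translation initiation factors were taken from a table of m6A regions in mouse embryonic stem cells. A region entered when its gene symbol began with Srsf, Srrm, Thrap3, Hnrnp, Rbm plus a digit or x, Sf3, Prpf, Snrnp, Ddx, Dhx, Eif or Pabp, and the rule used no measured value. It found 71 distinct regions under 54 genes, of 6697 regions under 3882 genes in all. The study profiled m6A-marked mRNA in E14K cells that were wild type or lacked the Gsk-3 kinases (double knockout, DKO), with 1 library of each. All cells were feeder-free and had gone 14 days without leukaemia inhibitory factor, the cytokine that maintains mouse stem cells. Input libraries of both genotypes are in the labels, but the table has 0 input columns, and its headers give the genotype without the library type. The counts were read as those of the m6A libraries for this reason: the table lists m6A regions. Whether either line is a single clone, and how the kinases were removed, is not given in the labels. Gsk3a had 0 regions in the table and Gsk3b had 1, annotated upstream of the gene (78 wild-type reads against 3), so 0 regions inside either gene check the knockout label.

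N6-methyladenosine (m6A) is written on nascent mRNA by a methyltransferase complex, mostly within a short motif around GGAC, and is read by proteins that steer splicing, export, translation and decay. Splicing factors act on the same transcripts: SR proteins and heterogeneous nuclear ribonucleoproteins (hnRNPs) choose exons, the spliceosome cuts and joins them, and helicases remodel RNA and its proteins at every step. Initiation factors then load the ribosome. Here these genes are described as transcripts that carry regions, not as readers or writers of the mark. Rbm15 and Rbm15b belong to both groups, since their proteins recruit the methyltransferase complex to RNA.

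Sequence could be shown only where a region reached a RefSeq start window (250 bases before to 50 after a transcription start, GRCm38.p6), which gives a reader the letters under a few of the counts. Regions of Ddx5, Ddx41, Sf3a1, Hnrnph1 and Eif1ad did so. GGAC was searched on both strands, and the match on which each 30-base stretch is centred is in capitals. The stretches below lie on the strand of the named gene, 5′ to 3′. A further GGAC in the Hnrnph1 stretch is left in lower case. Of the 32851 start windows, 87.7% hold GGAC on one strand or the other, so a match describes these letters and locates no methylated base. The windows of Ddx41 and Sf3a1 are those of the neighbouring starts of Gm46416 and Ccdc157. The overlapped windows at Eif1ad held no match.
Ddx5, chr11:106789320-106789349: agaggtcgcggccGGACtccaagacgagag
Ddx5, chr11:106789203-106789232: gtggaagagggagGGACgttaaaacggctt
Ddx41, chr13:55535976-55536005: aggaagagcagcaGGACagtggcagtgagc
Ddx41, chr13:55535946-55535975: cccgaggagatgaGGACgacatcccgctgg
Sf3a1, chr11:4160448-4160477: tcgccaccgaggtGGACtggcagccctgag
Sf3a1, chr11:4160484-4160513: agtcatgcaggccGGACccgtgcaggcggt
Hnrnph1, chr11:50378293-50378322: ccgcaatctgtgtGGACgccaggaccaccg

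Every one of the 71 regions had fewer reads in the double knockout, as did all 6697 regions of the table. The list therefore holds 1 direction, and only the size of the difference can be compared. Where 0 lies depends on the scaling between libraries, which could not be checked here. A median-ratio factor, taken from the 3315 listed regions with double-knockout reads, would add 3.77 to every log2 value. It would put 28 of the 54 genes above 0, without changing the order of the regions. Such a factor centres a list of 1 direction near 0 by construction, so it cannot decide the direction. Wild-type counts of the 71 regions ran from 15 to 384 with a median of 48, and double-knockout counts from 0 to 32 with a median of 3. Their sums were 4995 and 402 reads, against 573971 and 27072 over the whole table. These sums cover listed regions and are not sequencing depth. A fold is the wild-type count divided by the double-knockout count, times the constant the authors used between libraries (0.825), with a 95% counting interval. Where the double knockout had 0 reads the fold is a lower bound at a floor of 3 reads in that library. Intervals and floors allow for nothing beyond counting error, since PCR copies cannot be told from separate molecules here. The floor is applied to the double knockout alone, with wild-type reads entered as counted. A fold given as at least some value is therefore not the lower end of a 95% counting interval. That end lay lower, at 20.2 against 25.3 in Ddx5, 11.0 against 14.0 in Rbm33 and 3.85 against 5.22 in Rbm6. With 1 library per genotype no difference was tested, and each statement compares these libraries.

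Regions of these families more often kept some double-knockout reads than the table as a whole. There were 17 of 71 without any (23.9%, exact interval 14.6 to 35.5), where 50.5% of all regions had none. At least 10-fold lower were 31 of 71 (43.7%, 31.9 to 56.0), where 52.5% of all regions were. All 71 have a gene by the rule, while the whole table also holds regions without one. Among the other regions with a gene, 45.3% had no double-knockout reads and 54.1% were at least 10-fold lower. The median log2 value of double knockout over wild type, with 0.5 added to both counts, was -3.55, with quartiles of -4.68 and -2.86. Over all regions it was -4.93, with quartiles of -5.79 and -3.55. With zeros at their bound the medians lay nearer each other, at 8.94-fold and 10.4-fold.

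**Figure D1:**
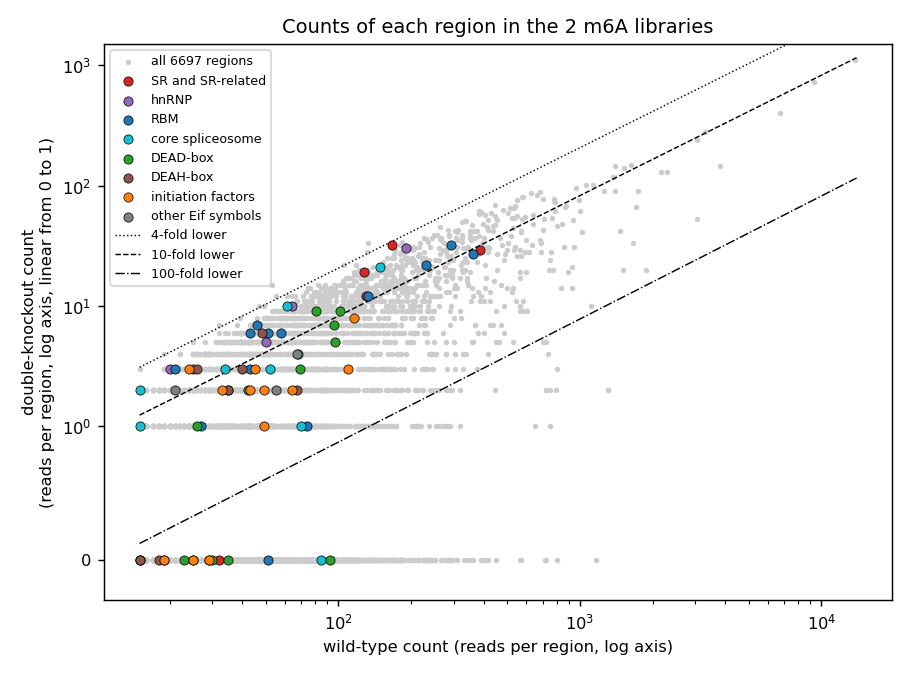
Double-knockout against wild-type count of each region, both on log axes (the vertical one linear from 0 to 1). Grey points are all 6697 regions, coloured points the 71 regions of the families, and lines mark 4-fold, 10-fold and 100-fold lower counts. The coloured points with the highest counts lie near or above the 10-fold line.

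Where a region lies goes with these shares. By the authors' annotation, 48 of the 71 overlapped a coding exon of the named gene (67.6%, 55.5 to 78.2), against 46.8% of the other 6133 gene-region pairs. Introns alone held 7 (9.86%, 4.06 to 19.3), against 20.8%. The 3'UTR was reached by 15 (21.1%, 12.3 to 32.4), against 15.2%, and the 5'UTR by 8 (11.3%, 4.99 to 21.0), against 6.60%. A coding exon together with the adjoining intron was covered by 20 of the 71 (28.2%, 18.1 to 40.1), against 17.9%. A coding exon alone was covered by 20 as well (28.2%, 18.1 to 40.1), against 22.8%, which its interval holds. The intervals for any coding exon, for a coding exon with intron and for introns alone did not reach the shares of the other pairs, and those for both UTR classes did. They treat regions as independent, although regions of 1 gene share a transcript.

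**Figure D2:**
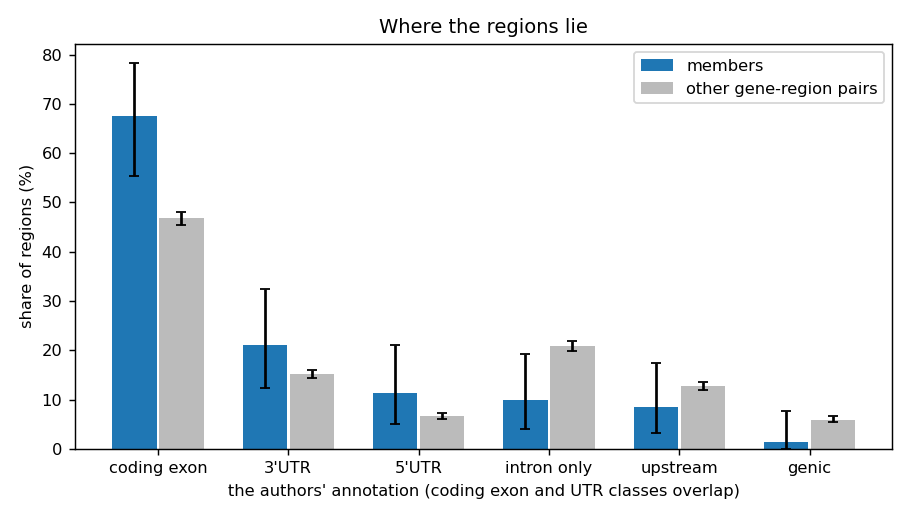
Share of regions (%) in each class of the authors' annotation, for the 71 regions of the families (blue) and the other 6133 gene-region pairs (grey), with exact 95% binomial intervals; a region can count in more than 1 exonic class. Coding exons stand at 67.6% against 46.8% and introns alone at 9.86% against 20.8%.

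The share without double-knockout reads was also lower within exons. An exon of any annotated gene was overlapped by 61 of the 71 regions. Of these, 12 had none (19.7%, 10.6 to 31.8), where 36.1% of all exonic regions had none, and 25 were at least 10-fold lower (41.0%, 28.6 to 54.3), where 56.6% were. Read number moves with both measures, so exonic regions were set side by side within bands of the wild-type count. At 15 to 29 reads, 8 of 18 had no double-knockout reads, against 58.9% of the other exonic regions. At 30 to 59 reads it was 4 of 22, against 41.7%. From 60 to under 120 reads it was 0 of 11 (up to 28.5%), against 23.8%, and from 120 reads upward 0 of 10 (up to 30.8%), against 10.4%. The share of the families was the lower one in each of the 4 bands. In the upper 2 bands, and at 15 to 29 reads, its interval held the value of the other regions.

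Summed counts gave the same order in exonic regions. The fold of the sums in exonic regions was 14.1 against 24.4 at 15 to 29 reads and 12.6 against 19.3 at 30 to 59 reads. It was 11.1 against 15.5 from 60 to under 120 reads and 7.56 against 12.9 above that. The 10 regions of the top band came from Srsf4, Srsf6, Thrap3, Hnrnpm, Sf3b5, Rbm15, Rbm15b and Rbm19, and 2 of the 10 were at least 10-fold lower, against 64.5% of the other exonic regions of that band. They sum to 2163 of the 4368 wild-type reads in the 61 exonic regions, so a few genes carry much of the total. Below the top band the 10-fold shares lay nearer each other. Going down they were 63.6% against 72.3%, 59.1% against 64.0% and 16.7% against 24.2%. The median fold at 30 to 59 reads, with zeros at their bound, was the higher one in the families (12.1 against 11.5). Intron-only regions did not follow the order of the exonic sums in full. The fold of the sums was 35.8 in the 7 of the families, with 10 double-knockout reads, against 23.5 in other intron-only regions. At least 10-fold lower were 4 of 7 (57.1%, 18.4 to 90.1), against 47.1%. No double-knockout reads were found in 4 of 7 (57.1%), against 70.2%.

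**Figure D3:**
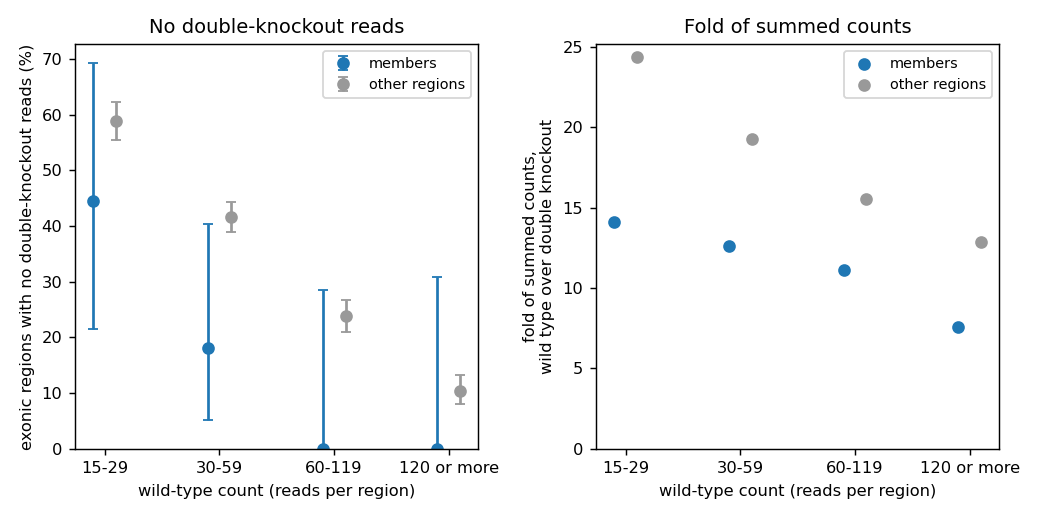
Exonic regions by wild-type count, with the families in blue and the other exonic regions in grey. The left panel gives the share without double-knockout reads (%, exact 95% binomial intervals) and the right panel the fold of summed counts, from 14.1 down to 7.56 in the families and from 24.4 down to 12.9 elsewhere.

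SR proteins bind enhancer sequences in exons and promote their inclusion. Srsf4 had the highest count of the 71 regions, with 384 reads against 29, 10.9-fold (7.48 to 16.5). The region is coding (chromosome 4, 131900652 to 131900829) and also lies in the noncoding gene Gm12992. At 2.16 wild-type reads per base it ranked 73 of 6697 by density. Srsf6 had 128 against 19 around its stop codon (chromosome 2, 162934567 to 162934782), 5.56-fold (3.42 to 9.53). Srsf11 had 32 against 0 in its 3'UTR, at least 8.80-fold lower. It was the 1 region of this family without double-knockout reads. Thrap3, an SR-related protein of splicing and transcription, had 2 regions. The coding one (chromosome 4, 126180457 to 126180635) had 167 against 32 (4.30-fold, 2.94 to 6.50), the smallest fold of the 71 regions among those with double-knockout reads. Its 3'UTR (126165059 to 126165277) had 130 against 12 (8.94-fold, 4.94 to 17.7). Over the 5 regions the sums were 841 and 92, a 7.54-fold difference. Of the 5, 1 was at least 10-fold lower, beside 52.5% of all regions. None of the 4 Srrm genes and 4 of the 16 SR and SR-related genes of RefSeq were listed, and Srsf1, Srsf2 and Srsf3 were among those not listed.

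The hnRNP genes had the smallest summed fold of the families. Hnrnpm, which regulates alternative exons, had 191 against 30 (5.25-fold, 3.56 to 7.997) and 64 against 10 (5.28-fold, 2.69 to 11.5) in coding sequence (chromosome 17, 33650002 to 33650169 and 33649666 to 33649837). The pair of values is nearly the same at different depth. Hnrnph1, which binds runs of G, had 50 against 5 near its start (8.25-fold, 3.31 to 26.5), and the intronless gene Hnrnpa0 had 20 against 3 in its 3'UTR (5.50-fold, 1.63 to 28.9). All 4 regions kept double-knockout reads, where 50.5% of all regions had none. A fold of 10 or more was reached by 0 of 4, beside 52.5% of all regions. The exact interval for 0 of 4 runs up to 60.2%. The sums were 325 and 48, or 5.58-fold. Only 3 of 21 hnRNP genes were listed (14.3%), without Hnrnpa2b1 or Hnrnpc, whose proteins are known for binding m6A-bearing RNA.

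Among RNA-binding motif (RBM) genes, the adaptors of the methyltransferase complex were the deepest. Rbm15b had 359 against 27 (10.97-fold, 7.41 to 16.9) and 292 against 32 (7.53-fold, 5.21 to 11.2) in coding sequence (chromosome 9, 106885754 to 106886116 and 106884975 to 106885260). Rbm15 had 230 against 22 (8.62-fold, 5.56 to 14.0), 51 against 6 (7.01-fold) and 46 against 7 (5.42-fold, 2.43 to 14.2) in coding sequence (chromosome 3, 107331995 to 107333032 from first to last base). Summed over their regions, Rbm15b had 651 against 59 (9.10-fold, 6.96 to 12.1) and Rbm15 327 against 35 (7.71-fold, 5.43 to 11.3). Both intervals hold the median fold of all regions, 10.4, and lie under the fold of the whole table's sums, 17.5, which gives deep regions more weight.

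The other RBM genes spread more widely. Rbm19, a nucleolar protein of ribosome assembly, had 133 against 12 at the end of its coding sequence (9.14-fold, 5.06 to 18.1), 74 against 1 in an inner coding exon (61.0-fold, 10.6 to 2443) and 21 against 3 in the 3'UTR (5.77-fold, 1.72 to 30.2). That inner exon had the largest ratio among the 54 regions with double-knockout reads, resting on 1 double-knockout read. It also lies in the noncoding gene Gm10390. Rbm33 had 51 against 0 at an intron-exon junction (chromosome 5, 28368270 to 28368421), which is at least 14.0-fold lower, and Rbm6 19 against 0, at least 5.22-fold. The splicing regulator Rbm4 had 58 against 6 (7.97-fold) and 43 against 3 (11.8-fold), and Rbm12 43 against 6 (5.91-fold). The near-identical copies Rbm12b1 and Rbm12b2 had 25 against 0 and 27 against 1, and their values are uncertain, since the labels do not say how reads were divided between such copies. Over 15 regions, 3 had no double-knockout reads, beside 50.5% of all regions, and 5 were at least 10-fold lower, beside 52.5%. The sums were 1472 and 126 (9.64-fold). Of 42 RBM genes 9 were listed.

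Core spliceosome regions with double-knockout reads ran from 5.03-fold to 57.7-fold. SF3 proteins belong to the particle that recognises the branch point. Sf3b5 had 149 against 21 in its coding sequence (chromosome 10, 13008803 to 13009009), 5.85-fold (3.69 to 9.73). Sf3a1 had 25 against 3 (6.87-fold) and 15 against 2 (6.19-fold, 1.44 to 55.7), and Sf3b3 15 against 0. Both regions of Sf3a2, 52 against 3 (14.3-fold) and 34 against 3 (9.35-fold), lay upstream of it. Prpf31, of the U4/U6 particle, had 61 against 10 at its stop codon region (5.03-fold, 2.56 to 11.0). Prpf38b had 68 against 4 in its 5'UTR (14.0-fold, 5.23 to 52.9), and Prpf40b 15 against 1. Snrnp35, a protein of the minor spliceosome, had 70 against 1 in coding sequence (chromosome 5, 124490463 to 124490689), 57.7-fold (10.03 to 2313), and 35 against 2 (14.4-fold) towards its start. Prpf18, a factor of the second splicing step, had 85 against 0 within an intron (chromosome 2, 4628979 to 4629184), which is at least 23.4-fold lower, and the kinase gene Prpf4b 29 against 0 in an intron. Over 13 regions, 3 had no double-knockout reads, beside 50.5% of all regions, and 6 were at least 10-fold lower, beside 52.5%. The exact intervals, 5.04 to 53.8% and 19.2 to 74.9%, hold these shares. The sums were 653 and 50 (10.8-fold). Of 29 genes 10 were listed (34.5%).

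Among DEAD-box helicases, 5 of 12 regions had no double-knockout reads (41.7%, 15.2 to 72.3), an interval that holds the 50.5% of all regions and the 36.1% of exonic ones. Ddx5, a cofactor of splicing and transcription, had 92 against 0 (chromosome 11, 106789180 to 106789443), at least 25.3-fold lower. Both stretches printed for it lie within this region. The region is annotated upstream of Ddx5 and lies in the divergent neighbour Ccdc45 (Cep95) as well. Ddx3x, a helicase of translation, had 23 against 0, Ddx41 35 against 0 and the nucleolar helicase gene Ddx56 15 against 0. Ddx54 had 69 against 3 (18.97-fold, 6.23 to 94.2) and 30 against 0. Other DEAD-box genes kept some reads. The nucleolar helicase gene Ddx21 had 101 against 9 (9.26-fold, 4.69 to 20.8), Ddx24 81 against 9 (7.42-fold, 3.72 to 16.8) and Ddx28, of mitochondrial ribosome assembly, 96 against 7 (11.3-fold, 5.28 to 28.9). Ddx10 had 97 against 5 in an intron (16.0-fold), Ddx31 42 against 2 upstream and the spliceosomal helicase gene Ddx23 26 against 1. At least 10-fold lower were 6 of 12, beside 52.5% of all regions, with sums of 707 and 36 (16.2-fold). Of 37 DEAD-box genes 11 were listed.

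DEAH-box helicases release RNA from splicing complexes, among other roles. Dhx35 had 67 against 2 in an intron (27.6-fold, 7.36 to 233), the largest fold of this family. Dhx15, which takes spent spliceosomes apart, had 40 against 3 near its start (11.0-fold, 3.50 to 55.6). Dhx34, a factor of nonsense-mediated decay, had 48 against 6 (6.60-fold, 2.82 to 18.9). Dhx30 had 35 against 2 and 26 against 3 in coding exons and 18 against 0 in an intron. The RNA sensor gene Dhx58 had 15 against 0. Of 7 regions 3 were at least 10-fold lower (42.9%, 9.90 to 81.6), beside 52.5% of all regions. The sums were 249 and 16 (12.8-fold). These counts are small, and the 16 double-knockout reads set the precision.

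Translation initiation factors, grouped by symbol alone, had the largest summed fold of the families, with 605 reads against 26 (19.2-fold, beside 17.5-fold over the whole table). Of their regions, 8 of 12 were at least 10-fold lower (66.7%, 34.9 to 90.1). That interval holds the 52.5% of all regions. Eif6, which keeps ribosomal subunits apart, had 116 against 8 across its coding start on chromosome 2 (155826416 to 155826646), 11.96-fold (5.87 to 28.4). Eif4e3, of the cap-binding family, had 109 against 3 within an intron (chromosome 6, 99638452 to 99638675), 29.97-fold (9.99 to 148). Eif1ad had 64 against 2 at its stop codon region (26.4-fold, 7.01 to 223) and 49 against 1 upstream (40.4-fold, 6.92 to 1628).

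Further factors of the same pathway had fewer reads. Eif4g1, the scaffold of the cap-binding complex, had 49 against 2 (20.2-fold, 5.30 to 172), and the cap-binding protein gene Eif4e 25 against 0, at least 6.87-fold lower. Eif5b, which joins the subunits, had 43 against 2 in a coding exon (17.7-fold) and 29 against 0 in an intron. For the exchange factor of eIF2, Eif2b1 had 45 against 3 (12.4-fold) and Eif2b2 19 against 0. The eIF3 subunit genes Eif3b and Eif3d had 33 against 2 (13.6-fold) and 24 against 3 (6.60-fold, 2.004 to 34.2). Only 10 of 52 genes in this symbol group were listed (19.2%), and none of 11 poly(A)-binding protein genes. The 52 are all Eif symbols outside Eif2ak and Eif2c, and so include genes such as Eif4ebp1 and Eif4enif1.

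The pattern Eif also takes genes that are no initiation factors. Eif2ak3 encodes PERK, the kinase that lowers translation when unfolded protein accumulates, and had 55 against 2 in a coding exon (22.7-fold, 5.99 to 192) and 21 against 2 near its start (8.66-fold). Eif2c2 is the older name of the Argonaute gene Ago2, and had 67 against 4 (13.8-fold, 5.15 to 52.2). Together the 3 regions had 143 against 8.

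**Figure D4:**
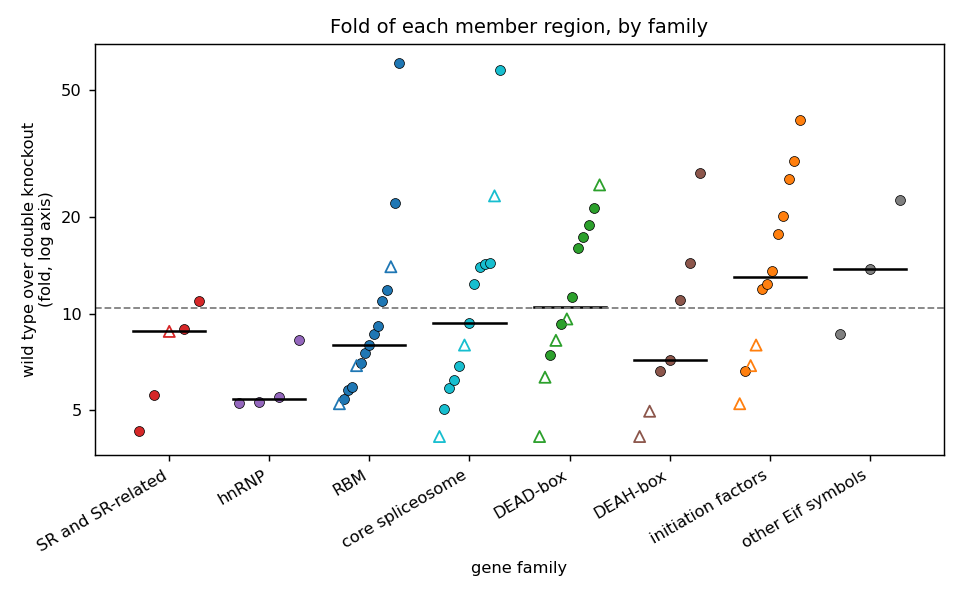
Fold of wild type over double knockout for each of the 71 regions by family, on a log axis. Filled points have double-knockout reads, open triangles are lower bounds at the floor of 3 reads, black bars are family medians (5.39 for hnRNP, 12.99 for initiation factors), and the dashed line is the median of all 6697 regions, 10.4.

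Family differences rest on few regions. Over the whole table the summed fold was 17.5 and the median fold 10.4. In order of summed fold the families ran hnRNP (5.58), SR and SR-related (7.54), RBM (9.64), core spliceosome (10.8), DEAH-box (12.8), other Eif genes (14.7), DEAD-box (16.2) and initiation factors (19.2). By median fold the order was another: hnRNP (5.39), DEAH-box (7.15), RBM (7.97), SR and SR-related (8.80), core spliceosome (9.35), DEAD-box (10.5), initiation factors (12.99) and other Eif genes (13.8). The median wild-type count ran from 35 in the DEAH-box and core spliceosome families to 130 in the SR family, so depth differs between families too. Its part in either order was not tested.

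For 14 of the 54 genes the table had more than 1 region. The range of log2 values within a gene had a median of 0.87, from 0.03 in Hnrnpm to 3.02 in Rbm19. In all 14 genes the counting intervals of the regions overlapped. Overlapping intervals do not show that regions are alike, and regions of a gene were not compared directly. In Thrap3 the overlap ran from 4.94 to 6.50, in Rbm15b from 7.41 to 11.2.

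**Figure D5:**
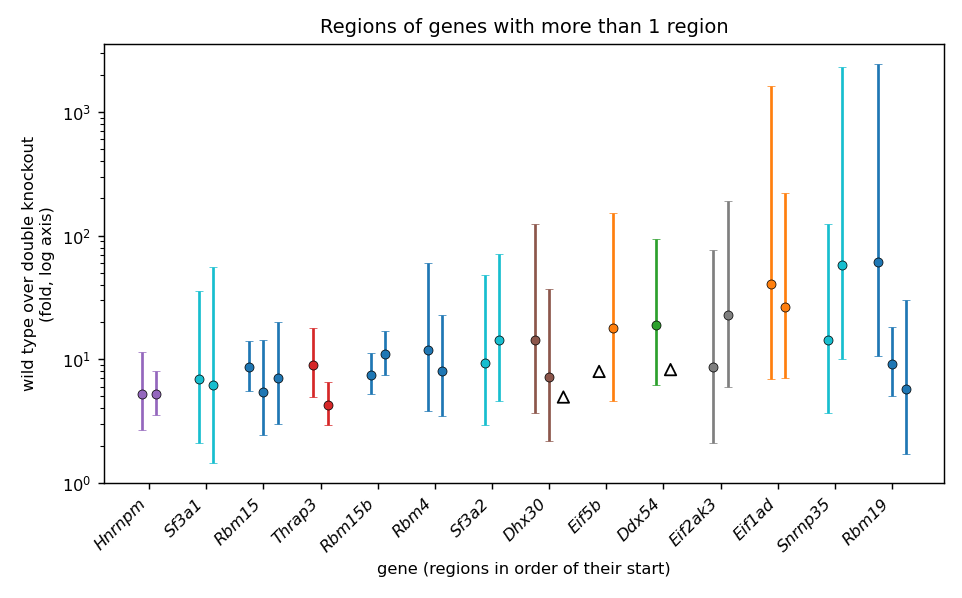
Fold of wild type over double knockout, on a log axis, for each region of the 14 genes with more than 1 region. Bars are exact 95% counting intervals and open triangles are lower bounds; regions within a gene have overlapping intervals, as in Thrap3 (8.94 and 4.30).

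Some regions were shared with a neighbouring gene. Of the 71, 21 were also listed under another gene or lay inside another RefSeq gene, and 50 were not. All 6 regions annotated as upstream lay in another gene: those of Sf3a2 in Dot1l and Plekhj1, that of Ddx31 in Gtf3c4, that of Dhx58 in Kat2a, that of Eif1ad in Banf1 and that of Ddx5 in Cep95. They had 284 reads against 9 (26.03-fold). The labels do not say whether counting used strand, so reads of neighbours cannot be told apart. Without the 21 shared regions, 20 of 50 were at least 10-fold lower (40%), beside 52.5% of all regions. Of the same 50, 13 had no double-knockout reads (26%), beside 50.5%.

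Related genes outside the symbol rule were taken from lists of other RNA-processing and translation genes, with the deepest region of each. Among other splicing regulators 10 of 15 listed genes had no double-knockout reads, including Celf2 (137 against 0 in an intron) and Msi2 (77 against 0 in an intron). The share was 6 of 12 for other core spliceosome genes, 7 of 13 for genes of the exon junction, decay and export, 3 of 7 for other RNA helicases and 3 of 10 for other translation factors. In the families above it was 14 of 54 genes (25.9%), and 46.2% of all 3882 genes. Median log2 values were -4.93, -5.12, -4.72, -4.77 and -3.87 in the same order of lists, -3.64 in the 54 genes and -4.85 in all genes. The medians of these lists lay on both sides of that of all genes. Annotation class and wild-type count both go with a count of 0, and the lists were not matched to the families by either. Several of the 10 splicing regulators without double-knockout reads had their region only in an intron or upstream. The decay and helicase lists share a gene.

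By RefSeq symbols, 53 of 228 protein-coding genes that fit the rule were listed (23.2%, 17.9 to 29.3), against 15.8% of 21900. Expression level could not be set beside this, with 0 input columns. The labelled cell type was checked against its markers: 3 of 10 pluripotency genes were listed, Pou5f1 (55 wild-type reads), Esrrb (146) and Lin28a (19, upstream), without Nanog or Sox2. Markers of other lineages were listed too, 5 of 8 for primitive endoderm (59 to 515 wild-type reads), 3 of 5 neural (37 to 1308), 3 of 4 mesodermal (30 to 89) and 2 of 4 fibroblast genes (37 and 108). In the double knockout Pou5f1 had 6 reads (7.56-fold, 3.26 to 21.5), Esrrb 7 and Lin28a 0. The regions of the other lists had 2 to 65 reads for primitive endoderm, 2 to 10 for neural, 0 or 1 for mesodermal and 0 for both fibroblast genes. The neural folds ran from 15.3 to 539. Their part in the values above was not tested. In libraries of mixed cells, fewer cells of a type and less marked RNA per cell cannot be told apart.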

How the data were processed

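Per the submitters' processing notes, Bowtie2, DESeq and mm9 were used, without role or version. The peak caller and the filter on regions were not given in the sources used here. Per the file headers, the table deposited by the authors gives a read count per region and genotype, and whether it was normalized is not stated. The deposited enrichment factor is a ratio, wild type over double knockout times 0.825. The deposited read density is a signal, the wild-type count per base. Of 62 regions with a RefSeq start, 45 lay at the deposited distance within 1 base in GRCm38.p6 and all 62 within 200 bases, so coordinates, printed as deposited, are described as GRCm38. All 71 gene identifiers matched RefSeq.

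The table's 7562 rows were reduced to distinct regions. Poisson and Clopper-Pearson 95% intervals, the latter turned into ratio intervals, were computed with scipy 1.17.1, after a check on simulated data. Log2 values have 0.5 added to both counts. Members and lists were chosen with earlier results of these data known. Any member could be named. Full values went, per family, to the 4 genes with the highest wild-type count, the 2 lowest and 2 highest log2 values among regions with a mean count no lower than the table's median, and genes with 3 or more regions. Of each other list, up to 4 genes with the largest log2 difference could be named. A search for the longer m6A motif in all regions was planned and not run, with no genome at hand.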

Additional observations from a re-analysis of the deposited data

How the results depend on the processing

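With 1 library per genotype no replicate could be left out. No paired analysis was possible because each genotype has a single library. The median log2 value of the 71 regions (-3.55) was -2.99 with a pseudocount of 2, and stayed within its order-statistic interval with a pseudocount of 0.25, without the authors' constant, and in every subset tried. With a pseudocount of 2 the hnRNP, DEAD-box and initiation factor medians (-2.36, -3.95 and -4.22) were -2.25, -3.27 and -3.34, outside their intervals. The core spliceosome and DEAH-box medians (-3.55 each) changed as well, to -2.81 each, which their intervals held. A median-ratio factor from the 3315 regions with double-knockout reads adds 3.77 to every log2 value by construction. It centres a list of 1 direction near 0, so signs under it cannot decide the direction. It gave 0.22 for the 71 regions, the core spliceosome and the DEAH-box family, 0.66 for SR, 1.41 for hnRNP, 0.63 for RBM, 0.14 for the other Eif genes, -0.19 for DEAD-box and -0.45 for initiation factors. It put 28 of 54 genes above 0, of which 12 had been at least 10-fold lower: Ddx28 and Rbm15b and Srsf4 (0.36, 0.34 and 0.34), Dhx15 (0.51), Dhx30 (0.22), Eif2b1 (0.34), Eif2c2 and Sf3a2 (0.14 each), Eif3b (0.30), Eif6 (0.27), Prpf38b (0.12) and Prpf40b (0.68). Of 244 alternatives for single genes 190 stayed within counting error, and the 42 that moved further and the 12 named all used this factor. The 190 are a weak check. Dropping the constant shifts every log2 value by the same small amount, and genes with 0 double-knockout reads have no lower limit. The share without double-knockout reads (23.9%) was 7.32% in the 41 with a mean count no lower than the table's median, where 0 is less likely by construction. The number at least 10-fold lower (31) was 41 of 71 without the constant, and 20 of the 50 regions not shared with another gene, a subset chosen after seeing the data in which fewer regions are counted. Wild-type counts of 15 to 29 allow no fold bound above 10 when the double knockout has 0 reads. Counts somewhat above 29 do not either: 30 in Ddx54, 32 in Srsf11 and 35 in Ddx41 gave bounds of 8.25, 8.80 and 9.62.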
